A study of Drosophila melanogaster with 6 samples.

Results

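GC-AG and AT-AC junctions are splice junctions whose introns lack the usual GT start and AG end, GC-AG introns at the start only and AT-AC introns at both ends. They were chosen here as every junction that the aligner gave the GC-AG or the AT-AC motif and at least 1 uniquely mapped read in the 1 library with a junction table, Pcf11 knockdown library 1. The set held 2195 GC-AG and 225 AT-AC junctions, 2420 of 101526 junctions with a uniquely mapped read. Another 97615 junctions had the GT-AG motif and 1491 had none of the motifs that the aligner lists. The threshold of 1 read left out 104 GC-AG and 10 AT-AC junctions that had multimapping reads only, at most 73 and 2 such reads each. Just inside it, 484 GC-AG and 52 AT-AC junctions had a single read.

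Polyadenylated RNA of whole Drosophila melanogaster testes, 150 pairs a library, was sequenced in 3 genotypes of 2 libraries each. The cbc knockdown carried the bamGal4 driver and a hairpin against cbc (BL 77426), the Pcf11 knockdown carried the driver and a hairpin against Pcf11 (VDRC 103710), and the control carried the driver with no hairpin. Crosses were kept 3 days at 25 °C before the progeny went to 29 °C. The driver acts in a part of the male germ line, while germ line and somatic cells of the testis were sequenced together. In such bulk samples fewer cells of a type and less RNA per cell cannot be told apart. Pcf11 and cbc, the fly Clp1, belong to a factor that cleaves nascent transcripts at their 3' ends. The junction library held 10381354 uniquely mapped junction reads, and no junction table of another library was analysed here, so junctions are described without replicate and without test. Gene counts were analysed for the other 5 libraries, with 18954932 and 20510200 counts in cbc knockdown, 79053532 in Pcf11 knockdown library 2, and 76132580 and 73600622 in control. The titles of the cbc libraries and of Pcf11 library 1 follow one naming style and those of the controls and Pcf11 library 2 another. Depth and style went with genotype between cbc and control, and their part and that of the genotype cannot be told apart there.

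Most introns are removed by the major spliceosome, whose U1 RNA pairs with the donor site at the start of the intron and whose U2 complex binds near the acceptor site at its end. A GC at the donor is the most common variant that the same machinery accepts. Many introns with AT and AC ends are instead removed by the minor spliceosome, which uses the U11, U12, U4atac and U6atac RNAs, and flies have kept few introns of that kind.

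GC-AG junctions were rare in number and carried a small share of the reads, and introns of 2 genes held 48.1% of it. They held 252042 uniquely mapped reads, 2.43% of all junction reads (95% Wilson interval 2.42 to 2.44%). AT-AC junctions held 12916 reads, 0.124% (0.122 to 0.127%), against 10021830 reads or 96.5% on GT-AG junctions. These intervals cover counting error only. The GC-AG introns of CG18628 and CG12699 alone held 121162 reads, 48.1% of the reads of their class, while the 2 strongest GT-AG junctions held 1.12% of theirs. The 10 strongest junctions held 56.0% of GC-AG reads and 64.2% of AT-AC reads, against 3.71% of GT-AG reads.

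The annotation split both classes. An intron with exactly the same ends was annotated in BDGP6.54 for 409 GC-AG junctions (18.6%) and 17 AT-AC junctions (7.56%), against 46613 GT-AG junctions (47.8%). Annotated introns held 69.5% of GC-AG reads and 24% of AT-AC reads, against 95.6% of GT-AG reads. The junction table carries its own mark for known junctions, but the mark was set on 1781 GC-AG, 207 AT-AC and 50860 GT-AG junctions that are not in the annotation, so the annotation was used in its place.

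Annotated GC-AG introns were close to annotated GT-AG introns in reads, overhang and length. Their median was 31 uniquely mapped reads, against 27 for GT-AG, and the median of annotated AT-AC introns was 29. The overhang is the longest stretch that any read aligned on its shorter side of the junction, at most 75 bases in this library. Its median was 72 bases for annotated GC-AG and 71 for annotated AT-AC introns, against 72 for annotated GT-AG introns. An overhang of 50 bases or more was reached by 84.8% of annotated GC-AG and by all 17 annotated AT-AC introns, against 86.7% of annotated GT-AG introns.

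Unannotated GC-AG and AT-AC junctions differed from unannotated GT-AG junctions in the same library. They had more reads, with a median of 6 for GC-AG and 5 for AT-AC, against 2 for GT-AG, but shorter overhangs, with medians of 10 and 14.5 bases against 46. The overhang stayed under 12 bases in 52.5% of unannotated GC-AG and 43.8% of unannotated AT-AC junctions, against 11.5% of unannotated GT-AG junctions. The same order held among junctions with at least 100 reads. Of these, 77 of 140 unannotated GC-AG and 10 of 18 unannotated AT-AC junctions never exceeded such a short overhang, against 113 of 551 unannotated GT-AG junctions (20.5%). Every junction with an overhang under 12 bases, annotated or not, carried the mark for known junctions (947 GC-AG, 91 AT-AC and 6566 GT-AG). Junctions without the mark had overhangs of at least 12, 15 and 12 bases in that order. The part of the mark in these contrasts was not tested.

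**Figure D1:**
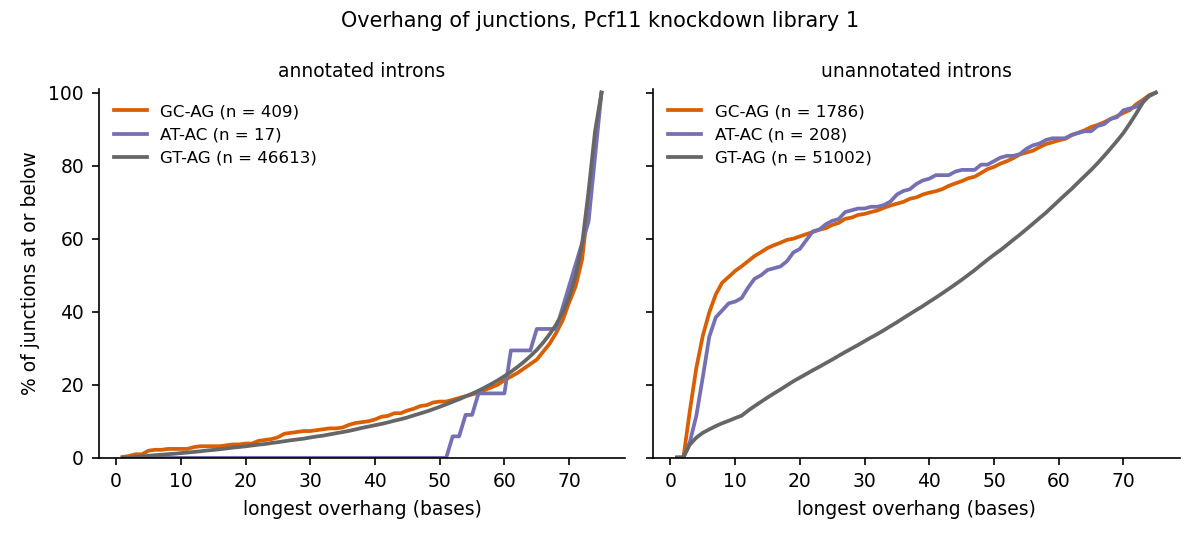
Cumulative share of junctions (vertical axis, percent) by longest overhang in bases (horizontal axis), for annotated introns on the left and unannotated introns on the right, by motif. For annotated introns the GC-AG and GT-AG curves run together, both with a median of 72 bases. The curve of the 17 annotated AT-AC introns has a median of 71 bases. It stays at 0% through 51 bases, where GC-AG is at 15.4% and GT-AG at 14.7%. The curves part for unannotated introns, with medians of 10 and 14.5 bases for GC-AG and AT-AC against 46 for GT-AG.

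Reads and overhang increased together in annotated introns, and in unannotated ones only for GT-AG. Across junctions of this library, Spearman's rho between the 2 measures was 0.79 over the 409 annotated GC-AG and 0.47 over the 17 annotated AT-AC introns, against 0.75 over the 46613 annotated GT-AG introns. Over unannotated junctions it was -0.12 for GC-AG (n = 1786) and -0.056 for AT-AC (n = 208), against 0.33 for GT-AG (n = 51002). All points share the library and its read length, and these values are descriptions.

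**Figure D2:**
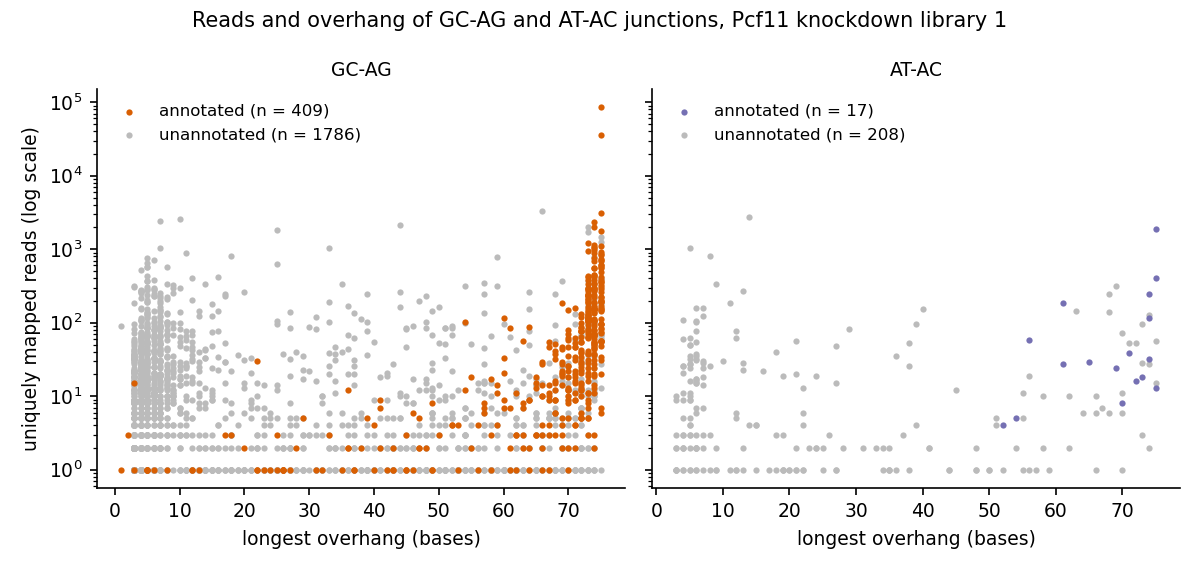
Uniquely mapped reads (vertical axis, log scale) against longest overhang in bases (horizontal axis), with 1 point per junction, GC-AG on the left and AT-AC on the right. Annotated introns (coloured) climb at long overhangs to the 85652 reads of CG18628, whereas 937 unannotated GC-AG and 91 unannotated AT-AC junctions (grey) stand at overhangs under 12 bases, some of them with over 1000 reads.

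Unannotated junctions also stood apart in place. None of the 1786 unannotated GC-AG junctions used an annotated donor and 20 used an annotated acceptor, and the 208 unannotated AT-AC junctions used 0 of either. Unannotated GT-AG junctions used an annotated donor in 9412 cases (18.5%) and an annotated acceptor in 13053 cases (25.6%). A gene on the strand opposite to the motif, with none on its own strand, held 28.3% of unannotated GC-AG and 26.4% of unannotated AT-AC junctions, against 16.1% of unannotated GT-AG junctions. The aligner reads the strand of such a junction from its motif, and every junction with a motif had a strand.

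Intron length separated AT-AC from the other classes where introns were annotated. The median annotated GC-AG intron had 74 bases and the median annotated GT-AG intron 77, while the 17 annotated AT-AC introns had a median of 531 bases, from 54 to 9118. Among unannotated junctions the medians were 96 bases for GC-AG and 154 for AT-AC, against 137 for GT-AG. Introns under 50 bases made up 18.1% of unannotated GC-AG and 14.9% of unannotated AT-AC junctions, against 3.33% of unannotated GT-AG junctions. None of the annotated GC-AG and AT-AC introns was that short, against 221 of the 46613 annotated GT-AG introns. A length that is a multiple of 3 was found in 48.7% of unannotated GC-AG and 37.5% of unannotated AT-AC junctions, against 35.1% of unannotated GT-AG junctions.

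**Figure D3:**
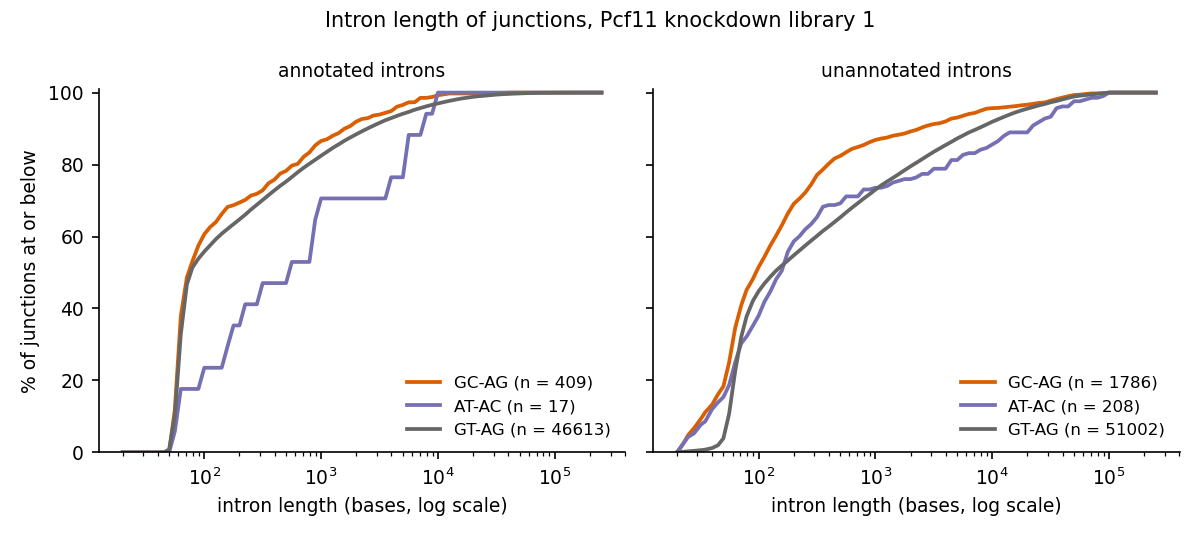
Cumulative share of junctions (vertical axis, percent) by intron length in bases (horizontal axis, log scale), annotated introns on the left and unannotated introns on the right. Annotated GC-AG and GT-AG introns follow one curve with medians of 74 and 77 bases, and annotated AT-AC introns lie to the right with a median of 531 bases.

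By position in the gene, 289 of the 409 annotated GC-AG introns (70.7%) lay within coding sequence and 84 (20.5%) in the 5' UTR, against 80.3% and 12.5% of annotated GT-AG introns. Another 15 lay in noncoding transcripts. The GC-AG intron was the first intron of a transcript in 172 cases (42.1%), against 30.5% of GT-AG introns, and the only intron of its transcripts in 37 cases (9.05%), against 6.70%. Of the GC-AG introns within coding sequence 50.5% fell between codons, against 41.7% of such GT-AG introns. Of the 17 AT-AC introns 12 lay within coding sequence, 2 in a 5' UTR, 2 in a 3' UTR, and 1 in either 5' UTR or coding sequence depending on the transcript.

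Chromosome 4, which is small and largely heterochromatic, held 11 annotated GC-AG introns (2.69% of them), against 1.44% of annotated GT-AG introns. The X held 55 annotated GC-AG (13.4%) and 4 annotated AT-AC introns (23.5%), against 15.4% of annotated GT-AG introns.

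The GC-AG intron with the most reads was the only intron of CG18628 (FBgn0036091, chr3L:10639857-10639919, plus strand, BDGP6), within its coding sequence. It held 85652 uniquely mapped reads at an overhang of 75 bases, more than the strongest GT-AG junction of the library with 72546. The only other junction at its acceptor had 5 reads and an overhang of 3 bases, so the GC donor took 99.99% of the reads there.

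The second was the only intron of CG12699 (FBgn0046294, chr2R:17247229-17247316, minus strand), in the 5' UTR, with 35510 reads. It took 99.98% of the reads at its acceptor (95% interval 99.96 to 99.99%). A GT-AG junction whose donor lay 4 bases away had 5 reads.

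Lower in reads came the first intron of CG7131 (chr3R:18287545-18287601, minus strand, 3080 reads), with no other junction at either end. The 5' UTR intron of COX4L (chr2R:5354046-5354108, plus strand), a relative of a cytochrome c oxidase subunit, had 2358 reads and 97.9% of those at its acceptor. The fourth intron of RpL10 (chr3L:23093879-23094683, minus strand), which encodes a protein of the large ribosomal subunit, had 1745 reads, 3.64 times the median of the 4 annotated GT-AG introns of its transcripts.

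CG7220 was the exception among these leaders. Its GC-AG intron (chr2R:10736056-10736656, plus strand) had 2034 reads, 43.0% of those at its acceptor (95% interval 41.6 to 44.4%), and an annotated GT-AG intron whose donor lay 4259 bases upstream had 2692.

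An annotated GC donor was in most cases the main donor for its acceptor. In 251 of 409 cases (61.4%) no other junction used the acceptor, against 73.5% of annotated GT-AG introns and all 17 AT-AC introns. The GC donor held more than 50% of the acceptor's reads in 81.4% of cases, against 89.5% of GT-AG introns. It held under 10% in 30 cases (7.33%), against 3.91%. Among these 30 the intron of CG14589 had the most reads, 72 or 7.53% of its acceptor's reads.

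A GT donor shared the acceptor with 158 of the annotated GC-AG introns, and the GC donor had more reads in 88, fewer in 67 and as many in 3. The strongest such GT donor lay 4 bases from the GC donor in 36 of the 158 (22.8%), on its downstream side in 35, and in 31 of these 36 the GC donor had more reads. Of 12331 annotated GT-AG introns that shared an acceptor with another GT-AG junction, 664 (5.38%) had its donor at 4 bases. In CG17375 the GC donor had 969 reads and the annotated GT donor at 4 bases had 203. The order was the other way in TTLL4A, a member of the tubulin tyrosine ligase family, with 484 reads on the GC donor and 730 on the annotated GT donor at 4 bases.

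Within transcripts, annotated GC-AG introns had a somewhat lower median level than their neighbours. For 317 annotated GC-AG introns with at least 2 annotated GT-AG introns in the same transcripts, the median ratio of their reads to the median of those introns was 0.88, with quartiles of 0.29 and 1.26. For 16 AT-AC introns it was 0.85, with quartiles of 0.57 and 1.34, against a median of 1 and quartiles of 0.55 and 1.39 for 38330 GT-AG introns measured in the same way. The ratio was under 0.1 in 17.0% of GC-AG introns, against 8.54% of GT-AG introns. Introns of alternative first or last exons enter these ratios, so they do not measure splicing of one transcript.

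Annotated GC-AG introns with 1 host gene fell in 371 genes, 24 of which had at least 2. The noncoding RNA lncRNA:CR44175 had 5, from overlapping introns with 696, 298, 294, 198 and 112 reads. CG8478, CG18507 and Pink1, the last a kinase of mitochondrial quality control, had 3 each. In CG8478 one GC-AG intron held 171 reads while the 2 others held 14 and 11.

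All 17 annotated AT-AC introns were alone at their donor and at their acceptor, so none shared a splice site with another junction. They lay in 17 genes. The intron of Phb2 (chr2R:18820839-18821040, plus strand), which encodes a prohibitin of the mitochondrial inner membrane, had 1873 reads, 60.3% of the reads on annotated AT-AC introns. That was 0.86 times the median of the 7 GT-AG introns of its transcripts.

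Kcmf1, a ubiquitin ligase gene, had 411 reads on its AT-AC intron (chr3R:9012306-9012836, minus strand), and Syx6, which encodes a syntaxin of membrane fusion, had 247 (chr2R:11220622-11220927, plus strand). Both exceeded the median of their GT-AG introns, at 1.34 and 2.02 times that median. CG1354 (chrX:9779243-9780240, plus strand) had 184 reads at 1.34 times that median.

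Epac stood out upwards. This gene encodes an exchange factor for the small GTPase Rap that is activated by cyclic AMP. Its AT-AC intron (chr2R:6764737-6765535, minus strand) had 116 reads, against a median of 9.5 on its 18 GT-AG introns, a ratio of 12.2.

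Taf2, Nhe3, Naa60, su(w[a]), baz, pros and Ca-alpha1T lay near the median of their GT-AG introns, with ratios between 0.67 and 1.33. They encode a subunit of the transcription factor TFIID, a sodium-proton exchanger, an N-terminal acetyltransferase, a splicing regulator, the polarity protein Par-3, a homeodomain factor of neural lineages and a calcium channel subunit. Their AT-AC introns had 59, 39, 27, 24, 18, 5 and 4 reads in that order. CG11839 had 29 reads on its single intron, which left no other intron to compare.

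The AT-AC intron of pros (chr3R:11377218-11378034, plus strand) holds a GT-AG intron within it, a nested arrangement that is a known example of competition between both spliceosomes. In this library the outer AT-AC junction had 5 reads and the inner annotated GT-AG junction had 1, which is too few to order them.

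At the low end bol, which encodes the RNA-binding protein Boule needed for meiotic entry in spermatocytes, had 16 reads on an AT-AC intron of 3708 bases in the 5' UTR (chr3L:9130609-9134316, minus strand). The median of its 7 GT-AG introns was 3456 reads. The gene syd, which encodes an adaptor of axonal transport, had 8 reads on an intron of 9118 bases in the 3' UTR, against a median of 29.5. CG10750 had 32 uniquely mapped reads, against a median of 2255, and PIG-L, a gene of GPI anchor synthesis, had 13, against 100.

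In CG10750 and PIG-L an annotated GT-AG intron of the same length lay beside the AT-AC intron, shifted by 2 bases at both ends in CG10750 and by 4 bases at both ends in PIG-L. The shifted GT-AG junction had 230 reads in CG10750 and 75 in PIG-L. The AT-AC junction of CG10750 also had 1468 multimapping reads and that of PIG-L 37, and the other 15 annotated AT-AC junctions had 0.

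**Figure D4:**
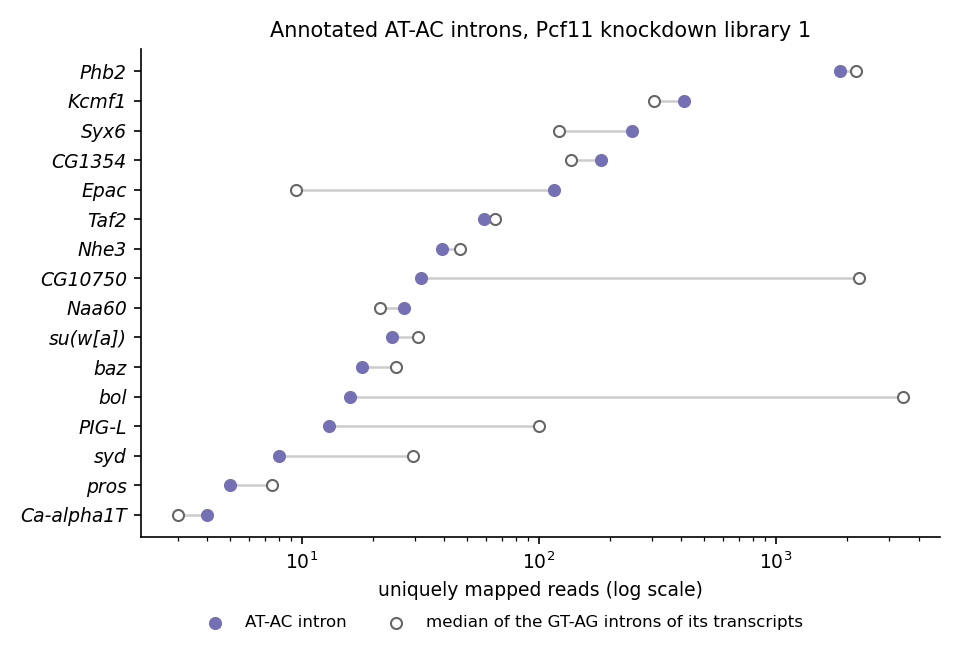
Uniquely mapped reads (horizontal axis, log scale) on each annotated AT-AC intron (filled) and the median over the annotated GT-AG introns of its transcripts (open), for the 16 genes with at least 2 such introns. Epac lies at 12.2 times the median of its GT-AG introns. CG10750 and bol lie far below the medians of theirs, with 32 and 16 reads against 2255 and 3456.

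Most unannotated junctions in 1 host gene had few reads beside the gene's GT-AG junctions. The median unannotated GC-AG junction had 2.38% of the reads of the strongest GT-AG junction of its host (835 junctions), and the median unannotated AT-AC junction 2.22% (86 junctions), against 1.32% for unannotated GT-AG junctions. However, 76 of these GC-AG and 8 of these AT-AC junctions had at least as many reads as that GT-AG junction. Among the 25432 unannotated GT-AG junctions compared 0 did, because a host's strongest GT-AG junction is not set against itself. The 76 and 8 therefore have no GT-AG counterpart, and the GT-AG median can be lower for that reason alone. Annotated GC-AG introns had a median of 62.4% and annotated AT-AC introns of 56.7%, against 52.1% for annotated GT-AG introns with the same limit.

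Some of the strongest unannotated GC-AG junctions joined neighbouring genes of one family. In the S-Lap1 and S-Lap2 genes, which encode leucyl aminopeptidases of sperm, 3 junctions of 2698, 2698 and 2696 bases had 3339, 2164 and 1811 reads (chr3L:8617532-8620229 minus, chr3L:8617872-8620569 plus and chr3L:8618998-8621693 minus, with both genes on the plus strand). Their overhangs reached 66, 44 and 25 bases, and they also had 376, 875 and 2837 multimapping reads in that order. A junction between tHMG1 and tHMG2, testis genes with HMG boxes, had 2022 uniquely mapped and 2132 multimapping reads (chr3R:22491968-22493303, minus strand, with both genes on the plus strand), and one between Mst98Ca and Mst98Cb had 1456 uniquely mapped and 5254 multimapping reads (chr3R:28291552-28293007).

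Unannotated junctions with their ends in 2 different genes numbered 119 GC-AG and 24 AT-AC. They made up 6.66% of unannotated GC-AG and 11.5% of unannotated AT-AC junctions and held 20.5% and 8.27% of their reads, against 5.58% of unannotated GT-AG junctions and 16% of their reads. Of the 119 GC-AG junctions 54 had the motif on the strand opposite to the genes, as had 10 of the 24 AT-AC junctions. Among unannotated GT-AG junctions with their ends in 2 different genes 982 of 2845 did. Multimapping reads were present at 26.7% of unannotated GC-AG and 24.5% of unannotated AT-AC junctions, against 8.0% of unannotated GT-AG junctions.

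Some other strong unannotated junctions were short or ended in a short overhang. CG30430 held one of 36 bases with 2610 reads and an overhang of 10 bases (chr2R:25129622-25129657, plus strand). S-Lap7 held one of 288 bases with 2412 reads and an overhang of 7 bases (chr2R:13779271-13779558, minus strand). A GT-AG junction 3 bases longer at the same acceptor had 1 read. Others were neither, such as one of 159 bases in CG8136 with 780 reads and an overhang of 59 bases, chosen after its values were seen. That junction lay on the plus strand (chr3R:8721928-8722086). A second unannotated GC-AG junction of 159 bases overlapped it on the minus strand (chr3R:8721874-8722032), with 265 reads and an overhang of 64 bases.

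The strongest AT-AC junction of the library was unannotated and mitochondrial. It spanned 21 bases of the mitochondrial genome, from 13482 to 13502 on the plus strand, with 2752 reads and an overhang of 14 bases, and a second unannotated one from 13474 to 13793 had 1030 reads and an overhang of 5 bases. Both lay in the large ribosomal RNA gene mt:lrRNA, which is on the other strand. The next 3 among unannotated AT-AC junctions were nuclear, with 808 reads opposite CG31740 on 2L, 338 opposite Mst98Ca on 3R and 320 within ssp5 on 3R. Of these the ssp5 junction (chr3R:12034293-12034413) had an overhang of 69 bases and the others of 8 and 9. A junction of 38343 bases on 3L, from 14036061 to 14074403, had 268 reads and an overhang of 13 bases.

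Several unannotated members shared a gene. The poly(A)-binding protein gene pAbp held 8 AT-AC junctions with 143 reads in all, within bases 18146137 to 18147076 of 2R. They were 25 to 313 bases long and had overhangs of 3 to 39 bases. Cpr50Ca, Myo81F and Usp47 held 5 unannotated GC-AG junctions each, with 2179, 7 and 112 reads in all. Those of Cpr50Ca lie where S-Lap7 runs on the opposite strand, and Cpr50Ca had 214 counts in Pcf11 knockdown library 2, so the gene of origin of these reads is uncertain.

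The gene counts ask how the hosts of these introns behaved in the knockdowns. The cbc gene was at 4.04 and 3.20 CPM in cbc knockdown and 63.9 CPM in Pcf11 knockdown library 2, against 52.5 and 56.9 CPM in control. Pcf11 was at 102 and 97.9 CPM in cbc knockdown and 24.2 CPM in Pcf11 knockdown, against 49.9 and 54.7 CPM in control. CPM are counts of a gene per 1000000 counts of its library after TMM scaling.

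Change was common in both comparisons. At an edgeR adjusted p under 0.05, 74.1% of 13960 genes were called in cbc knockdown, 36.3% higher and 37.8% lower, and 69.0% in Pcf11 knockdown, 32.6% higher and 36.4% lower. The Pcf11 comparison rests on 1 count library that is assumed to vary like the others, and both comparisons share the controls. Its balance of higher and lower genes depended on scaling. The all-gene median log2 fold change was -0.062 with TMM and 0.086 with RLE scaling. For genes with an annotated GC-AG intron it was -0.16 and -0.0081, below the all-gene median both times. Shares of higher and lower calls in Pcf11 knockdown are those with TMM unless stated.

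Genes with an annotated GC-AG intron were called about as often as all genes in cbc knockdown. Of 367 tested, 135 (36.8%) were higher and 150 (40.9%) lower, with a median log2 fold change of -0.04, against -0.02 over all genes. In Pcf11 knockdown 114 (31.1%) were higher and 165 (45%) lower, with a median of -0.16, against -0.06 over all genes.

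When hosts of unannotated members were added, 408 of 1114 host genes (36.6%) were higher and 452 (40.6%) lower in cbc knockdown. Over all genes the shares were 36.3% and 37.8%. In Pcf11 knockdown 508 (45.6%) were higher and 353 (31.7%) lower, against 32.6% and 36.4% of all genes. Their median was 0.18, against -0.06 over all genes. The members were found in reads of a Pcf11 knockdown library, and the part of that choice in these counts was not tested. Among hosts of annotated members alone 31.3% were higher and 45.4% lower in Pcf11 knockdown, against 32.7% and 39.2% of genes with an annotated GT-AG intron.

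CG18628 had 6467 and 4187 CPM in cbc knockdown and 2630 CPM in Pcf11 knockdown, against 12416 and 14567 CPM in control. All 3 knockdown libraries were below both controls. The log2 fold change was -1.34 ± 0.16 (SE, edgeR adjusted p = 1.52e-05) in cbc knockdown and -2.36 ± 0.22 (edgeR adjusted p = 2.51e-06) in Pcf11 knockdown.

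CG12699 had 2166 and 2236 CPM in cbc knockdown and 5119 CPM in Pcf11 knockdown, against 2346 and 2125 CPM in control. The cbc libraries lay within the range of the controls and the Pcf11 library above it. Its log2 fold change was -0.023 ± 0.085 (SE, edgeR adjusted p = 0.818) in cbc knockdown and 1.2 ± 0.10 (edgeR adjusted p = 1.03e-06) in Pcf11 knockdown.

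The other leading hosts moved in both ways. COX4L fell by 1.32 on the log2 scale in cbc knockdown (edgeR adjusted p = 4.49e-08) and stood at -0.23 in Pcf11 knockdown (edgeR adjusted p = 0.0516), where it did not pass except without control library 2 (-0.31) and with no filter on low counts (-0.25). RpL10 fell by 0.51 in cbc knockdown (edgeR adjusted p = 3.44e-04) and by 1.45 in Pcf11 knockdown (edgeR adjusted p = 9.44e-07). CG7131 stood at -0.0044 in cbc knockdown (edgeR adjusted p = 0.966) and rose by 1.34 in Pcf11 knockdown (edgeR adjusted p = 5.32e-07). CG7220 rose by 0.21 (edgeR adjusted p = 0.0251) and by 1.06 (edgeR adjusted p = 1.03e-06) in the same order, the first of which did not pass without cbc library 1 (0.22), without cbc library 2 (0.22), without control library 2 (0.19), with no filter on low counts (0.14) or with the replicate block (0.22, adjusted p = 0.0625).

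Hosts of the strongest unannotated junctions also moved in both ways. CG30430 fell by 2.35 in cbc knockdown (edgeR adjusted p = 5.19e-09) and by 0.36 in Pcf11 knockdown (edgeR adjusted p = 0.0249), and the Pcf11 value did not pass with RLE scaling (-0.21), with DESeq2 (-0.21) or without control library 1 (-0.21). S-Lap7 was at -0.21 in cbc knockdown (edgeR adjusted p = 0.0386), a call lost without cbc library 1 (-0.25), without cbc library 2 (-0.16), with RLE scaling and with the replicate block (adjusted p = 0.248), and rose by 0.72 in Pcf11 knockdown (edgeR adjusted p = 5.49e-05). The gene ssp5 was at 0.21 in cbc knockdown (edgeR adjusted p = 0.0558), past the threshold without control library 1 (0.34), and rose by 1.38 in Pcf11 knockdown (edgeR adjusted p = 7.57e-07).

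Of the 17 genes with an annotated AT-AC intron 10 were higher, 4 lower and 3 did not pass in cbc knockdown, where 36.3% of all genes were higher and 37.8% lower, with a median log2 fold change of 0.30. None of these changes reached 2-fold. In Pcf11 knockdown, where 32.6% of all genes were higher and 36.4% lower, 6 were higher, 10 lower and 1 did not pass, with a median of -0.34. With RLE scaling, which moved the median of all genes there by 0.15, the split was 7 higher and 6 lower. The gene that did not pass, PIG-L, was at 0.22 (edgeR adjusted p = 0.0651) and passed with RLE scaling at 0.37. CG1354, Epac, syd and pros, all lower, did not pass with RLE scaling. In Pcf11 knockdown Syx6 was at 0.27 (edgeR adjusted p = 0.0418), and did not pass without control library 1 (0.18).

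Phb2 had 427 and 425 CPM in cbc knockdown and 577 CPM in Pcf11 knockdown, against 346 and 345 CPM in control, so the knockdowns did not overlap the controls. It rose by 0.30 ± 0.075 on the log2 scale (SE, edgeR adjusted p = 0.00343) and by 0.74 ± 0.089 (edgeR adjusted p = 1.79e-05). Kcmf1 rose likewise, to 192 and 198 CPM in cbc knockdown and 222 CPM in Pcf11 knockdown, against 151 and 146 CPM in control, with log2 fold changes of 0.40 (edgeR adjusted p = 5.50e-04) and 0.58 (edgeR adjusted p = 1.22e-04).

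Taf2 went in opposite directions in the knockdowns, with 80.2 and 75.3 CPM in cbc knockdown and 31.3 CPM in Pcf11 knockdown, against 49.7 and 56.8 CPM in control. Its log2 fold changes were 0.54 (edgeR adjusted p = 1.83e-04) and -0.77 (edgeR adjusted p = 8.57e-05). Naa60, syd, pros and Ca-alpha1T showed the same signs, called in both comparisons. The cbc call of Ca-alpha1T was lost without cbc library 1 (0.33), control library 1 (0.30) or control library 2 (0.41). For pros, 24.1 and 26.1 CPM in cbc knockdown and 15.4 CPM in Pcf11 knockdown stood against 22.0 and 19.6 CPM in control, and the cbc call was lost without cbc library 2 (0.23) or control library 2 (0.19).

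The largest changes of the 17 came in Pcf11 knockdown. bol had 924 and 958 CPM in cbc knockdown and 2032 CPM in Pcf11 knockdown, against 807 and 696 CPM in control, a log2 fold change of 1.43 in Pcf11 knockdown (edgeR adjusted p = 4.11e-07). baz had 33.7 and 31.0 CPM in cbc knockdown and 18.0 CPM in Pcf11 knockdown, against 48.6 and 46.9 CPM in control, and fell by 1.40 in Pcf11 knockdown (edgeR adjusted p = 8.05e-07). Epac, whose AT-AC intron had more reads than the median of its GT-AG introns, was lower in both. It had 29.2 and 29.6 CPM in cbc knockdown and 34.7 CPM in Pcf11 knockdown, against 43.0 and 45 CPM in control.

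**Figure D5:**
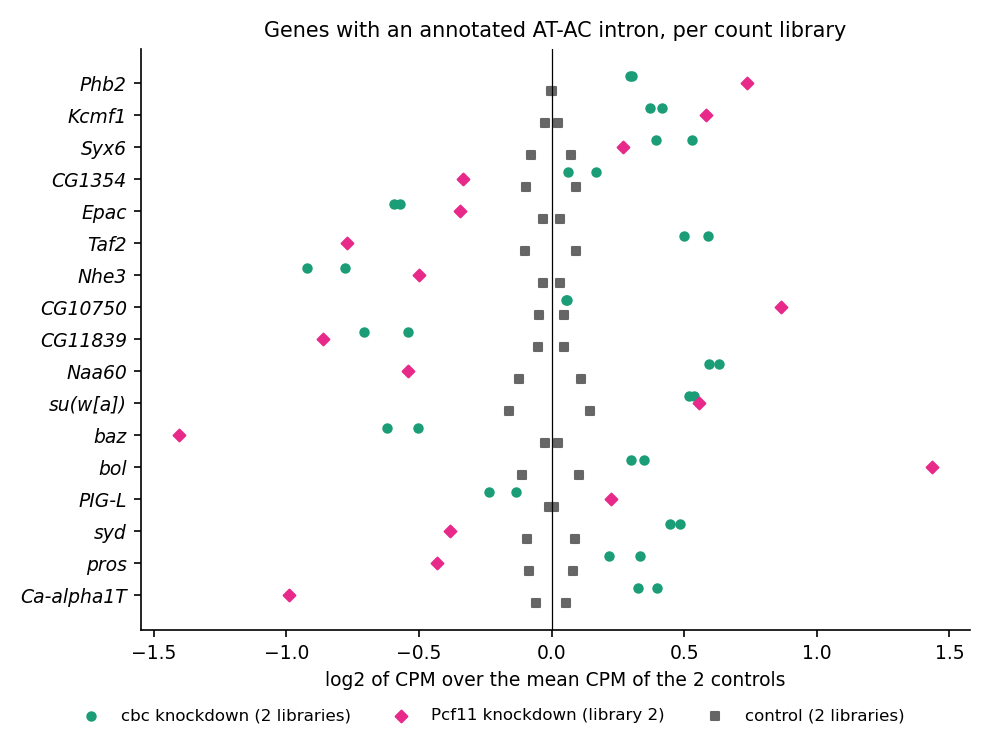
Level of each gene with an annotated AT-AC intron in the 5 count libraries, as log2 of its CPM over the mean CPM of the 2 controls (horizontal axis), for cbc knockdown (circles), Pcf11 knockdown library 2 (diamonds) and control (squares). The cbc libraries lie within 1 unit of the controls for every gene, and bol at 1.43 and baz at -1.40 are the outermost points of the Pcf11 library.

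Of 5 minor spliceosome names 2 matched the annotation, snRNA:U11 and CG3294, and both rose in both knockdowns. Over all genes 36.3% were higher in cbc knockdown and 32.6% in Pcf11 knockdown. Names without a match were not measured, so the 2 matches do not describe the list as a whole. The place of CG3294 in that list was not checked against a source. The U11 RNA, which binds the donor site of minor introns, had 19.0 and 19.1 CPM in cbc knockdown and 20.4 CPM in Pcf11 knockdown, against 1.3 and 1.42 CPM in control. Its log2 fold change was 3.8 ± 0.13 (SE, edgeR adjusted p = 6.86e-10) in cbc knockdown and 3.90 ± 0.14 (edgeR adjusted p = 3.64e-09) in Pcf11 knockdown. CG3294 had 10.2 and 11.9 CPM in cbc knockdown and 23.5 CPM in Pcf11 knockdown, against 8.47 and 8.84 CPM in control.

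The U11 gene lies within the gene Fie on the opposite strand of 3L. Fie, chosen after its values were seen, had 91.2 and 96.2 CPM in cbc knockdown and 133 CPM in Pcf11 knockdown, against 47.1 and 46.8 CPM in control. Counts antisense to a gene made up 3.52 and 3.63% of stranded counts in the cbc libraries and 3.16% in the Pcf11 library. In the controls they made up 3.10 and 3.08%. They outnumbered reads with no gene in sense, with 2434543 against 1101082 in control library 1. Part of them thus came from reads that also overlapped a gene in sense, and the percentages are not a rate of antisense reads. The part of antisense reads in the U11 counts was not tested. Libraries were made from polyadenylated RNA, and U11 RNA is not normally polyadenylated, so these counts are not its total level.

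The counts of splicing genes stand against all genes, of which 36.3% were higher and 37.8% lower in cbc knockdown and 32.6% higher and 36.4% lower in Pcf11 knockdown. Of 5 tested genes that act at the donor, 1 rose and 3 fell in cbc knockdown and 0 rose and 3 fell in Pcf11 knockdown. The U1 protein gene snRNP-U1-C had 17.7 and 13.6 CPM in cbc knockdown and 21.7 CPM in Pcf11 knockdown, against 31.5 and 33.9 CPM in control. Prp8, the core protein of the spliceosome, had 77.8 and 65.5 CPM in cbc knockdown and 28.6 CPM in Pcf11 knockdown, against 81.4 and 96.2 CPM in control. snf, a protein of the U1 and U2 particles, fell by 0.67 in cbc knockdown (edgeR adjusted p = 3.11e-04) and by 0.92 in Pcf11 knockdown (edgeR adjusted p = 1.50e-04).

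Of 13 genes that act at the acceptor and branch point, 5 rose and 5 fell in cbc knockdown, and 3 rose and 7 fell in Pcf11 knockdown, against all-gene shares of 36.3% higher and 37.8% lower in cbc knockdown and 32.6% and 36.4% in Pcf11 knockdown. Sf3a2 and Sf3b5, of the U2 particle, fell by 1.39 and 0.86 in cbc knockdown (edgeR adjusted p = 5.18e-06 and 2.08e-05) and by 0.65 and 0.50 in Pcf11 knockdown (edgeR adjusted p = 0.00504 and 0.00397). The gene noi, of the same particle, rose by 0.91 in cbc knockdown (edgeR adjusted p = 2.12e-06) and was at 0.19 in Pcf11 knockdown (edgeR adjusted p = 0.132). Of 13 SR and hnRNP regulators of splice site choice, 4 rose and 7 fell in cbc knockdown, and 1 rose and 10 fell in Pcf11 knockdown, beside the same all-gene shares. SC35, an SR protein gene, had 16.6 and 15.6 CPM in cbc knockdown and 17.8 CPM in Pcf11 knockdown, against 46.7 and 54.8 CPM in control, without overlap. SC35 itself holds an annotated GC-AG intron, with 141 reads. SF2, another SR protein gene, fell by 1.0 in cbc knockdown (edgeR adjusted p = 8.56e-07) and by 1.58 in Pcf11 knockdown (edgeR adjusted p = 3.15e-07), while vir rose by 1.24 (edgeR adjusted p = 3.55e-07) and 0.32 (edgeR adjusted p = 0.0281) in that order. The median log2 fold changes of the SR and hnRNP list were -0.34 in cbc and -0.65 in Pcf11 knockdown, against -0.02 and -0.06 over all genes.

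Male germ line markers had 55840 junction reads in the junction library, on 8 of 9 genes. Their summed level was 2820 and 2901 CPM in cbc knockdown and 6705 CPM in Pcf11 knockdown, against 5576 and 4741 CPM in control, with 3 of 9 higher and 4 lower in each comparison. The sum includes bol, an AT-AC host, at 924 and 958 CPM in cbc knockdown and 2032 CPM in Pcf11 knockdown, against 807 and 696 CPM in control. Markers of other tissues in or near the testis had 1824 junction reads on 4 of 6 genes, with 0 for Yp1 and tj. The germ line marker fzo also had 0, though it had 30706 counts in Pcf11 knockdown library 2, where tj had 61. No annotated junction was counted for Yp1, tj or fzo, so their 0 reads do not measure expression. The other-tissue markers summed to 174 and 141 CPM in cbc knockdown and 118 CPM in Pcf11 knockdown, against 257 and 284 CPM in control. Of them 1 of 6 was higher and 3 were lower in each comparison. Both marker counts stand beside all genes, of which 36.3% were higher and 37.8% lower in cbc knockdown. In Pcf11 knockdown these shares were 32.6% and 36.4%. The part of the marker shifts in the host gene values was not tested.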

How the data were processed

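Junction reads of Pcf11 knockdown library 1 and counts of reads per gene of 5 other libraries were used as the authors deposited them, raw and not normalized. STAR, Trim Galore, deepTools and SAMtools and the builds dm6 and BDGP6 are named per the submitters' processing notes, and tool versions and settings are not given in the sources used here. STAR scores junctions with other motifs below GT-AG junctions and filters new ones by motif and overhang, so the settings used can change how many GC-AG and AT-AC junctions are listed. Members and gene lists were chosen with earlier results of these data known.

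Junctions were compared with the introns, genes and coding sequences of the BDGP6.54 annotation, which may not be the release that the authors used. Of 17807 gene identifiers 17710 were found in it. The host of a junction was the gene on its strand that holds both ends. Genes that reached 10 sense counts in 2 or more libraries (13960 genes) were fitted with the quasi-likelihood model of edgeR 4.0.16 in R 4.3.3 with TMM scaling, all 3 groups together, with 2 residual and 9.33 prior degrees of freedom. Tests were two-sided and adjusted by Benjamini-Hochberg over all genes tested. The script was tested on simulated data. The Pcf11 group has 1 count library. Totals that name no gene (5.89 to 7.31% of uniquely mapped reads) stayed out.

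No label ties a library to a culture of its own, so the p-values reflect the spread between these libraries alone, and part of it may be technical. Counts of the controls differed from each other beyond sampling noise (chi-square over degrees of freedom 56.0), as did those of the cbc libraries (8.41). Errors are the SE of the fit.

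Named junctions were the 12 GC-AG and 8 AT-AC junctions with the most reads and the 4 strongest unannotated GC-AG junctions. Their hosts, all annotated AT-AC hosts, both knocked-down genes, minor spliceosome genes and up to 3 members of each other list by absolute log2 fold change in cbc knockdown were the named genes. Any other gene was named after its values were seen. List names with no match in the annotation were snRNA:U12:73B, snRNA:U4atac:82E, snRNA:U6atac:29B, Luc7 and Acp70A. Alternatives were other minimums of reads and overhang, multimapping reads, the annotation, RLE scaling, no filter, DESeq2 1.42.0, a replicate block and leaving out each library. No sequences of splice sites were used here.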

Additional observations from a re-analysis of the deposited data

Results flagged for a closer look

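Junctions with none of the listed motifs, which enter no comparison, held 94566 uniquely mapped reads, 0.911% of the junction reads, and 0 of the 1491 junctions matched an annotated intron. Their overhang reached 50 bases or more in 51.8% of cases. The strongest had 9210 reads and spanned bases 7363513 to 7363536 of 3R. They were looked at because they are data outside the described motifs, and no control library has a junction table to set beside them.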

How the results depend on the processing

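With an overhang of at least 20 bases 1108 GC-AG and 108 AT-AC junctions were left, with at least 3 uniquely mapped reads 143 AT-AC junctions, and in the annotation 409 and 17. With multimapping reads GC-AG junctions held 2.48% and AT-AC junctions 0.135% of junction reads. Without the strongest junction of each class the shares were 1.62% and 0.0979%, and over annotated introns 1.69% and 0.0299%. Of the host genes called, annotated introns accounted for 298 in cbc and 294 in Pcf11 knockdown. The replicate block gave 841 called host genes in cbc knockdown, against 860 without it, and ended the calls of S-Lap7 (adjusted p = 0.248) and CG7220 (adjusted p = 0.0625). Same-numbered control and cbc libraries deviated with a correlation of -0.10, and the crossed pairing, added after seeing the data, called 889. Leaving out a library in turn gave 784 to 830 called hosts in cbc and 811 to 874 in Pcf11 knockdown. RLE scaling shifted the all-gene median in Pcf11 knockdown by 0.15 (log2) and the share of higher calls among annotated AT-AC hosts there to 53.8%, against 37.5%. DESeq2 called 819 and 838 hosts in cbc and Pcf11 knockdown. Values near 0 changed sign in cbc knockdown only. CG10750 was at -0.015 with no filter on low counts. CG7131 was at 0.0042 with the replicate block and 0.0041 with the crossed one, and leaving out a library gave -0.093 to 0.072. CG12699 ranged from -0.10 to 0.044 when a library was left out. Of 448 alternative fold changes of named hosts 394 kept their direction and their side of the threshold. Of 36 alternative medians of reads, overhang and length by motif 13 moved, under a minimum of reads or overhang or among the few junctions without the mark for known junctions. The 5 GC-AG and 1 AT-AC junctions without the mark for known junctions were too few to describe.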
